A study of Mus musculus with 8 samples.

Results

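The Wnt feedback genes and Tcf factors described here are 9 genes with 14 probes, out of 27573 gene names and 41174 probes on the array. They were chosen by name alone: every probe listed as Axin2, Nkd1, Notum, Sp5, Apcdd1, Wif1, Dkk3, Tcf7 or Lef1, or under an older alias of one of them, was taken, unless its accession belonged to another gene. Notum is listed under the clone name 5730593N15Rik. Of the 9 genes, 5 passed the signal filter in the sorted cells and 6 in the deletion comparison.

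Wnt signalling stops the breakdown of beta-catenin, which then binds Tcf and Lef factors on DNA and switches on target genes. Several of those targets encode proteins that dampen the same pathway, among them Axin2, Nkd1, Notum and Apcdd1, so their RNA is widely read as a measure of pathway activity. In the small intestine the pathway is most active at the crypt base, where Lgr5-positive stem cells divide and where the transcription factor Ascl2 is made.

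RNA was compared on 8 two-colour arrays. The first 4 set GFPhi cells against GFPlo cells, both sorted from intestines of Lgr5-EGFP-ires-CreERT2 mice, in which the Lgr5 promoter drives GFP and an inducible Cre. There were 2 sorts, each made from 3 mice combined. The other 4 set small intestinal epithelium of Ah-Cre/Ascl2floxed/floxed mice against epithelium of Ah-Cre/Ascl2floxed/wt controls, at 3 and at 5 days after induction. The controls, which the array labels call wildtype, thus carry the Cre and 1 floxed Ascl2 copy as well. Ah-Cre is driven by an inducible Cyp1a1 promoter. Age, the inducing agent and the number of animals behind each deletion pair are not stated in the labels. Each of the 4 RNA pairs went onto 2 arrays with the dyes swapped, and those 2 arrays count as 1 replicate, so each comparison has n = 2 RNA pairs. Each RNA pair has a slide of its own, so slide and RNA pair cannot be told apart. The p values therefore rest on spread between pooled or undescribed RNA extracts. In the fit of all 4 RNA pairs, that spread includes the difference between the 2 deletion days. The test between days takes it from the sorts alone.

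The scanner marked between 35.1% and 44.5% of probes in a channel as well above background on the sort arrays, and between 54.6% and 66.4% on the deletion arrays. The epithelial marker Epcam was well above background in every RNA on every array. Lgr5, whose promoter drives the sorted GFP, had a mean log2 ratio of 1.85 in GFPhi over GFPlo, and Ascl2 had -1.32 in deleted over control epithelium. Whether the Ascl2 probe lies in the deleted part was not analysed here.

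A property of the sort 2 arrays touches most values below and is given first. On these 2 arrays, between 18 and 39 spots per channel had a signal more than 20 intensity units under their own local background. With those spots included, the background model (normexp) estimated a background SD of 314 to 740 intensity units. Without them it estimated 1.32 to 2.34 units. One day 5 array had 4 to 7 such spots per channel and an SD of 39.3 to 78.7, against 0.94 to 1.64 without them. The 5 other arrays had 0 to 2 such spots per channel and an SD of 1.11 to 3.51. A large estimated SD pulls the ratios of dim probes towards 0. The planned setting was kept all the same, so ratios are given as fitted on all spots. Where the mean of a member or named gene, or the median of a Wnt gene list, differs by more than 1.5 times with the background refitted without those spots, that value stands beside it. The refit was chosen after the values were seen. In a limma fit of all 4 RNA pairs, this refit gave 0 genes past an adjusted p of 0.05 in the sorts and 0 in the deletion, with 1063 and 1498 at an unadjusted p under 0.05.

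**Figure D1:**
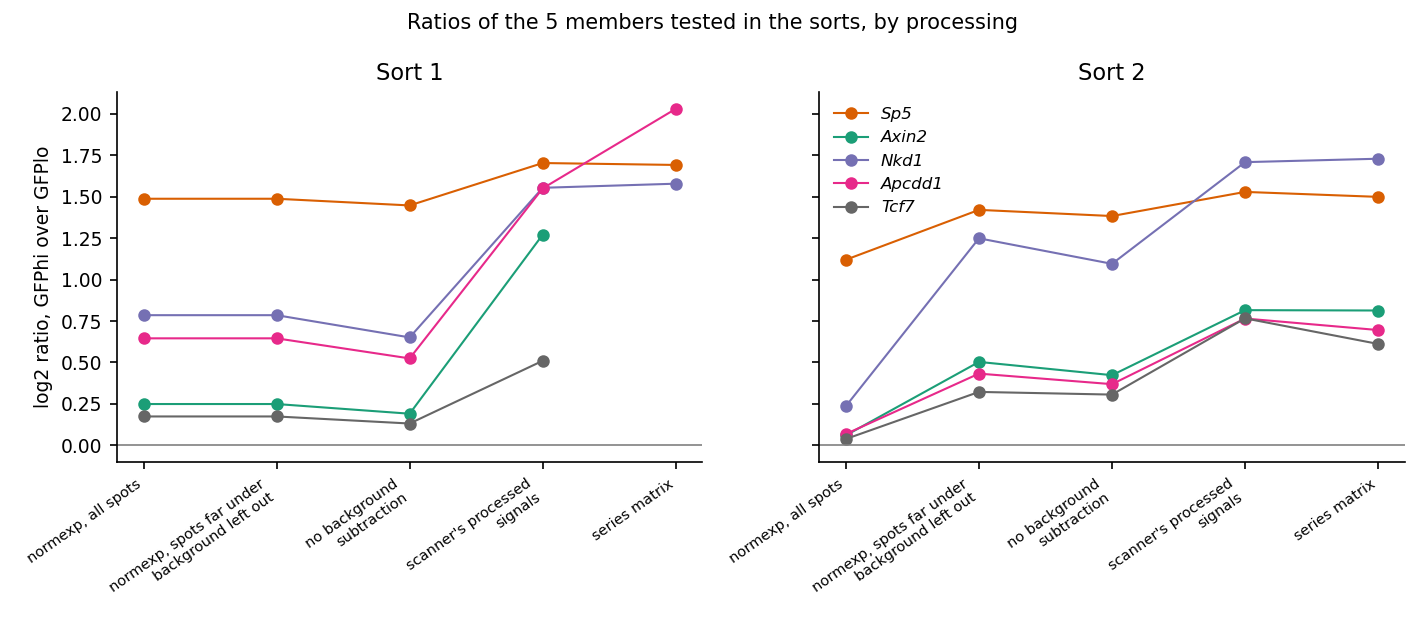
Log2 ratios of GFPhi over GFPlo for the 5 members tested in the sorts, as the mean of the 2 dye-swapped arrays of sort 1 (left) and of sort 2 (right), under 5 ways of processing the same arrays. The points of sort 2 lie between 0.04 and 1.12 with all spots in the background fit and between 0.32 and 1.42 once spots far under their local background are left out, and a missing point had no value in the series matrix for that sort.

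The promoters of Sp5, Axin2 and Nkd1 are shown because these are established beta-catenin targets whose ratios lay far apart as fitted on all spots. On the scanner's processed signals, the sort ratios of Sp5 (1.70 and 1.53) and Nkd1 (1.55 and 1.71) lay close together. The sequences are RefSeq's on build GRCm38.p6, plus strand, from 250 bases before the start of the gene to 50 after it. Capitals mark CTTTG followed by A or T at each of the next 2 positions, the core that Tcf and Lef factors are known to bind. It was searched on both strands, and no other motif was searched. They lie at chr2:70474673-70474972 for Sp5, chr11:108920099-108920398 for Axin2 and chr8:88527383-88527682 for Nkd1.
Sp5: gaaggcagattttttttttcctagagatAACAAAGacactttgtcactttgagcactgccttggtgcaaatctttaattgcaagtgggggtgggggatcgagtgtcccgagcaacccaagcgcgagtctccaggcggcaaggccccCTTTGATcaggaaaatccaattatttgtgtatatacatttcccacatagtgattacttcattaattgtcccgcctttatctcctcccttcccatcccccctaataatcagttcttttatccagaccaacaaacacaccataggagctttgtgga
Axin2: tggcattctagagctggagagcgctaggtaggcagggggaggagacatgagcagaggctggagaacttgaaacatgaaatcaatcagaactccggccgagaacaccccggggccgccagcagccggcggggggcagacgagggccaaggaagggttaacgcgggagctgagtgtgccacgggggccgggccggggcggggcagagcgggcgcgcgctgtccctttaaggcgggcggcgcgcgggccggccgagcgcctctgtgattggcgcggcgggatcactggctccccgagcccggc
Nkd1: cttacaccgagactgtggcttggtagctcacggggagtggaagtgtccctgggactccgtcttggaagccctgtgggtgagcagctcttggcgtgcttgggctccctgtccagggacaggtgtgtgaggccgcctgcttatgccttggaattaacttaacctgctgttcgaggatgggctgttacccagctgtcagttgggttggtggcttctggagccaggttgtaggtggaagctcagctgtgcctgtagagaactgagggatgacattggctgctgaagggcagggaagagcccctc
The Sp5 window holds 2 such words, 1 that starts at -222 and reads on the other strand, and 1 that starts at -104 and reads on the gene strand, counted from the start of the gene. The Axin2 and Nkd1 windows hold 0. Of all 32851 promoters in the table, 16.9% hold at least 1 such word and 1.94% hold 2 or more. Both Tcf7 windows and the Wif1 window hold 0, and 1 of 4 Lef1 windows holds 1. These are letter matches in a short window and say nothing of binding.

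Across the sorted cells, 5 of 5 tested members had a mean ratio above 0 in GFPhi over GFPlo, with a median log2 ratio of 0.36 (0.54 with the refit) against 0.00015 over all 10436 genes tested. On all 4 arrays, 4 of the 5 (Sp5, Nkd1, Apcdd1 and Tcf7) were higher in GFPhi cells, against 16.5% of all genes tested. By limma with Benjamini-Hochberg adjustment over all genes, 0 members and 0 of the 10436 passed 0.05 (0%), while 528 had an unadjusted p under 0.05, or 5.06%. That fit takes its spread from all 4 RNA pairs, and so includes the difference between the 2 deletion days. With the sorts fitted alone, 75 genes passed (0.719%), and Sp5 was the member among them. With the sorts fitted alone and the background refitted, 1335 genes passed (12.8%), 676 higher and 659 lower in GFPhi cells. Of the 5 members, 4 were then among the higher genes: Sp5, Nkd1, Apcdd1 and Axin2. By limma, the adjusted p values were 0.000167, 0.00239, 0.00999 and 0.0413, and Tcf7 was at 0.109. In the fit of all 4 RNA pairs on all spots, the adjusted p was 0.629 for Sp5 and 0.99999 for each of the 4 other members.

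The size of these ratios depended on the processing for most members. On the scanner's processed signals, Nkd1 was at 1.55 in sort 1 and 1.71 in sort 2, Apcdd1 at 1.55 and 0.76, and Tcf7 at 0.51 and 0.77. Sp5 was at 1.70 and 1.53 on those signals, against 1.49 and 1.12 with the background fitted on all spots. All of these values lie above 0, but their order differs with the processing, and Nkd1 lies above Sp5 in sort 2 on the processed signals.

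**Figure D2:**
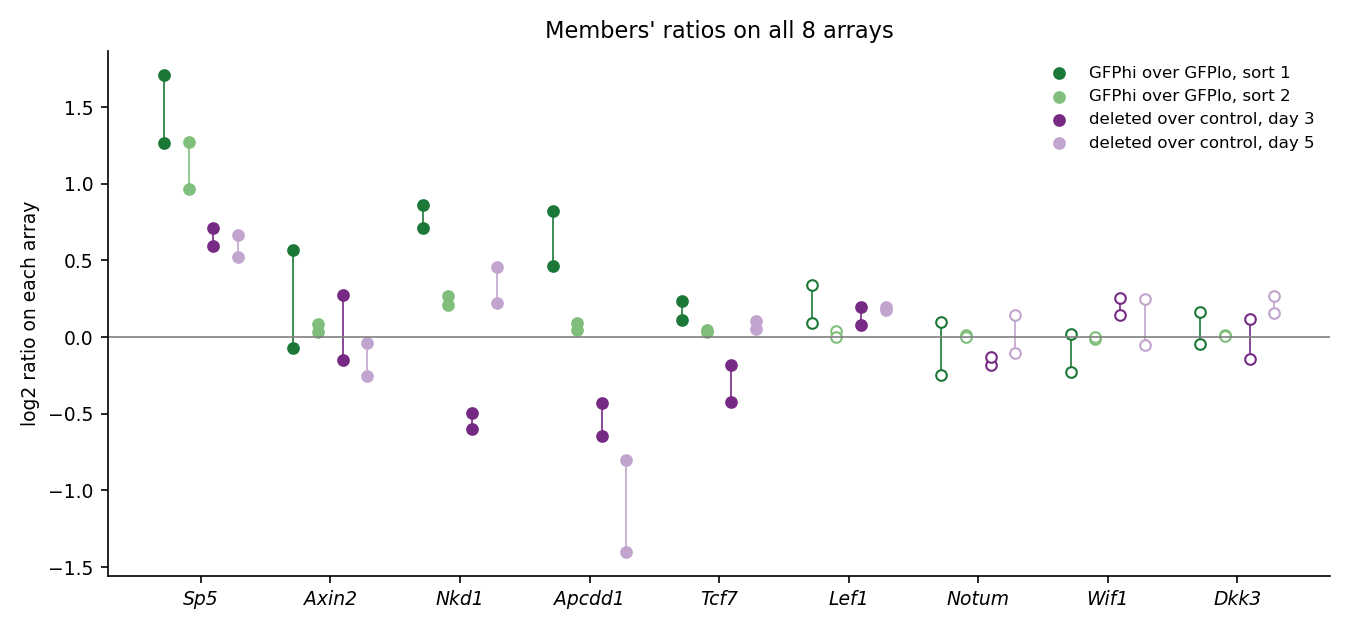
Log2 ratios of the brightest probe of each member on all 8 arrays, with lines joining arrays of 1 RNA pair, as fitted on all spots. Filled points passed the signal filter in that comparison and open points did not. Sp5 lies between 0.52 and 1.71 on the 8 arrays, while Nkd1 and Tcf7 lie below 0 on day 3 and above 0 on day 5.

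Sp5 encodes a zinc finger transcription factor of the Sp and Klf family and is itself a direct Wnt target. It was higher in GFPhi than in GFPlo cells and higher in Ascl2-deleted than in control epithelium. For GFPhi over GFPlo, the sort 1 arrays gave log2 ratios of 1.26 and 1.71, and the sort 2 arrays 1.27 and 0.97. For deleted over control, the day 3 arrays gave 0.59 and 0.71, and the day 5 arrays 0.66 and 0.52. All 8 values are thus above 0, which held for 154 of the 10312 genes tested in both comparisons, or 1.49%. Its lowest value of 0.52 was the second highest lowest value among those genes, after that of Rec8 at 0.56. With the background refitted, 168 genes (1.63%) were above 0 on all 8 arrays and Sp5's lowest value, 0.56, ranked first.

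On the normalized log2 signal scale, Sp5 averaged 12.23 and 12.40 in the GFPhi cells of sorts 1 and 2, against 10.75 and 11.28 in their GFPlo cells. It averaged 11.11 on day 3 and 10.78 on day 5 in deleted epithelium, against 10.46 and 10.19 in control epithelium. The share of all genes whose means lie apart between the 2 RNAs was not computed, so these means are given as levels only. The mean sort ratio was 1.30 ± 0.26 (SD, n = 2 sorts), 2.47-fold, the fourth highest of 10436 genes tested. In the fit of all 4 RNA pairs the SE was 0.12 and the difference missed the threshold (limma adjusted p = 0.629). The adjusted p was 0.0201 if only the sorts entered and 0.0169 when all 8 arrays entered with a random block for the RNA pair. Leaving out 1 deletion day also takes the spread from the sorts alone, so it is no separate check. With either sort left out, the ratio is that of the other sort, 1.49 or 1.12. The mean deletion ratio was 0.62 ± 0.043 (SD, n = 2 days), 1.54-fold, rank 382 of 15890. Its limma adjusted p was 0.446, and 0.0297 with day 5 left out, where 38.4% of genes passed. The deletion is then a single RNA pair, which is assumed to vary like the sorts, so that value is no evidence from replicates. Of 15 alternatives for the Sp5 deletion ratio, it was the only 1 that passed. With day 3 left out instead, the ratio was 0.59. The limma adjusted p was 0.0945 with the random block over all 8 arrays and 0.965 with the deletion pairs alone. Deletion minus sort was -0.68 (SE 0.17, limma adjusted p = 0.420), a difference for which 0 genes passed by limma and 9.63% of the 10312 had an unadjusted p under 0.05.

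The Sp5 probe sits on the plus strand of chromosome 2, from 70278470 to 70278529 in mouse build mm8, in which the array's probe positions are given. No annotation of mm8 was used here, so exon or UTR is not given for any probe.

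Nkd1 and Axin2 act inside the cell. Nkd1 encodes a protein that binds Dishevelled and dampens the signal, and Axin2 encodes a scaffold of the complex that marks beta-catenin for breakdown. In the sorts Nkd1 was higher in GFPhi cells on every array, at 0.71 and 0.86 for sort 1, and 0.27 and 0.21 for sort 2, as log2 ratios. The mean was 0.51 ± 0.39 (SD, n = 2 sorts), 1.42-fold (SE 0.27). Refitting the background gave 1.10 and 1.40 for the sort 2 arrays, and the mean over both sorts became 1.02 ± 0.33, which ranks 21 of 10436. Its adjusted p was then 0.386 in the fit of all 4 RNA pairs.

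Nkd1 lay on opposite sides of 0 on the deletion days. As log2 ratios of deleted over control, the day 3 arrays gave -0.49 and -0.60, and the day 5 arrays 0.46 and 0.22. On the log2 signal scale it averaged 7.70 on day 3 and 8.58 on day 5 in deleted epithelium, against 8.25 and 8.24 in controls. Day 5 minus day 3 was 0.89 (SE 0.28, limma adjusted p = 0.0858). With the background refitted it was 0.94 (SE 0.22, adjusted p = 0.0134). Its deletion mean of -0.10 (SE 0.27, limma adjusted p = 0.890) joins values of opposite sign and describes neither day. The probe sits on the plus strand of chromosome 8, from 91482365 to 91482424 in mm8.

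Axin2 showed small ratios, whose sign changed between the dye-swapped arrays of sort 1 and of day 3. The sort 1 arrays gave log2 ratios of -0.07 and 0.57, and the sort 2 arrays 0.03 and 0.09, with a mean of 0.15 ± 0.13 (SD, n = 2 sorts). After the refit, sort 2 gave 0.23 and 0.77 and the mean became 0.38. The scanner's processed signals gave 1.27 in sort 1 and 0.82 in sort 2. In GFPlo cells its signal passed background on 3 of 4 arrays. In the deletion the day 3 arrays gave -0.15 and 0.27, and the day 5 arrays -0.04 and -0.25, so the days overlap. The deletion mean of -0.04 ± 0.15 (SD, n = 2 days) had an SE of 0.11 and a limma adjusted p of 0.882. With day 5 left out it was 0.061. The probe sits on the plus strand of chromosome 11, from 108766756 to 108766815 in mm8.

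Apcdd1, Notum, Wif1 and Dkk3 act outside the cell or at its surface. Apcdd1 encodes a membrane protein that binds Wnt ligands and inhibits the pathway. It was higher in GFPhi cells and lower in deleted epithelium on every array, a pattern that 401 of 10312 genes shared, or 3.89% (4.01% with the background refitted). For GFPhi over GFPlo the sort 1 arrays gave log2 ratios of 0.47 and 0.82, and the sort 2 arrays 0.09 and 0.04, with a mean of 0.36 ± 0.41 (SD, n = 2 sorts). After the refit, sort 2 gave 0.55 and 0.31 and the mean became 0.54 ± 0.15. For deleted over control the day 3 arrays gave -0.64 and -0.43, and the day 5 arrays -1.40 and -0.80, all below the sort arrays.

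The deletion mean of Apcdd1 was -0.82 ± 0.40 (SD, n = 2 days), 1.76-fold lower and the 100th lowest of 15890 genes (SE 0.22, limma adjusted p = 0.476). On the log2 signal scale it averaged 7.66 on day 3 and 7.23 on day 5 in deleted epithelium, against 8.19 and 8.33 in controls. On the scanner's processed signals day 5 was at -2.38. The day 5 array at -0.80 is the 1 with the large estimated background SD, and it was at -1.35 once refitted. Day 5 minus day 3 was -0.56 (SE 0.30, limma adjusted p = 0.230) on all spots and -0.84 (SE 0.17, adjusted p = 0.00677) with the refit. It also passed with no background subtraction, at -0.73 (adjusted p = 0.0230). Deletion minus sort was -1.18 (SE 0.31, limma adjusted p = 0.433). A second Apcdd1 probe passed background on 1 of the 4 arrays of GFPhi cells and on 0 of any other RNA. Both probes lie on chromosome 18.

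Notum, Wif1 and Dkk3 could not be measured at this signal. Notum encodes a secreted enzyme that removes the lipid from Wnt proteins, Wif1 a secreted protein that binds them, and Dkk3 a secreted member of the Dickkopf family. The 2 Notum probes were not well above background on any array in any RNA. In deleted epithelium Wif1 passed background on 1 of 4 arrays and Dkk3 on 2 of 4, and in the other RNAs both passed on 0. Their log2 ratios ran from -0.25 to 0.27 over the 8 arrays and are not read as differences, since none of these genes was measured on all arrays of any RNA. The 2 Notum probes are listed on opposite strands, on chromosome 11 at 120470297 to 120470356 (minus) and at 120477787 to 120477846 (plus) in mm8. Wif1 lies on chromosome 10 at 120503083 to 120503142 and Dkk3 on chromosome 7 at 111908495 to 111908554.

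Tcf7 and Lef1 encode HMG-box factors through which beta-catenin reaches DNA, and both are also abundant in T cells. For Tcf7 the sort 1 arrays gave log2 ratios of GFPhi over GFPlo of 0.11 and 0.24, and the sort 2 arrays 0.05 and 0.03. The mean was 0.11 ± 0.096 (SD, n = 2 sorts). With the refit sort 2 was at 0.32 and the mean became 0.25. Deleted over control was -0.42 and -0.18 on the day 3 arrays and 0.11 and 0.05 on the day 5 arrays, a mean of -0.11 ± 0.27 (SD, n = 2 days, limma adjusted p = 0.734). The days do not overlap. Day 5 minus day 3 was 0.38 (SE 0.13, limma adjusted p = 0.0921). A second Tcf7 probe that passed the filter in the deletion alone had -0.17 on day 3 and 0.07 on day 5, the same order of days. The 2 probes lie on chromosome 11 at 52096035 to 52096094 and 52096752 to 52096811, minus strand, in mm8.

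Lef1 was measured in the deletion comparison alone. Its probe passed background on 4 of 4 arrays for deleted epithelium and on 3 of 4 for controls, while it passed on 1 of 4 for GFPhi cells and on 0 of 4 for GFPlo cells. Deleted over control was 0.08 and 0.19 on the day 3 arrays and 0.19 and 0.18 on the day 5 arrays, as log2 ratios, with a mean of 0.16 ± 0.036 (SD, n = 2 days, limma adjusted p = 0.567). All 4 values were above 0. The day 5 mean was 0.19 on all spots and 0.29 with the refit, where the second array was at 0.39. The other 2 Lef1 probes were above background on at most 1 array of any RNA. The measured probe sits on the plus strand of chromosome 3, from 131213273 to 131213332 in mm8.

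T cell markers were present in the deletion RNA, and 10 of 17 had a lower deleted over control ratio on day 5 than on day 3 by limma, and 1 a higher. Their summed signal over 17 genes was 27437 to 28584 in deleted epithelium on day 3, against 11550 to 12250 in controls. On day 5 it was 33974 to 34031 in deleted epithelium, against 30962 to 34060 in controls. In the sorts it was 4782 to 5616 in GFPhi cells and 4782 to 5460 in GFPlo cells, and Cd8a was above background on 0 of 4 arrays in both. The T cell list had 14 of 17 members higher in deleted epithelium, with a median of 0.77 on day 3 against -0.02 on day 5. Tcf7 ran the other way from that median, at -0.30 on day 3 and 0.08 on day 5. The T cell marker Cd8b1 did so too, at -0.52 and 0.17. The share of T cell RNA in the Tcf7 and Lef1 values was not tested. In bulk RNA, fewer cells of a type and less RNA per cell cannot be told apart.

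In the deletion comparison as a whole, 2 of 6 tested members (Sp5 and Lef1) were higher on all 4 arrays, against 12.5% of genes tested. Of the 6, 1 (Apcdd1) was lower on all 4 arrays, against 13.3%. By limma, 0 of 15890 genes passed (0%), with 1533 at an unadjusted p under 0.05, or 9.65%. Mean ratios were above 0 for 2 of the 6 members, against 49.8% of all genes. The median of the 6 was -0.07, against -0.00096 over all genes tested. Between the days, 4417 genes passed by limma (27.8%), with 15.5% of all genes higher and 12.3% lower on day 5, and 0 of the 6 members passed. At an unadjusted p under 0.05, 2 of the 6 did (Nkd1 and Tcf7). With the background refitted 4782 genes passed (30.1%), and 2 of the 6 members, Nkd1 and Apcdd1, were among them. That day test draws its spread from the sorts alone, with 1 RNA pair a day. Both day 5 arrays lay above both day 3 arrays for Nkd1 and Tcf7, as for 34.7% of genes, and below them for Apcdd1, as for 33.5%.

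**Figure D3:**
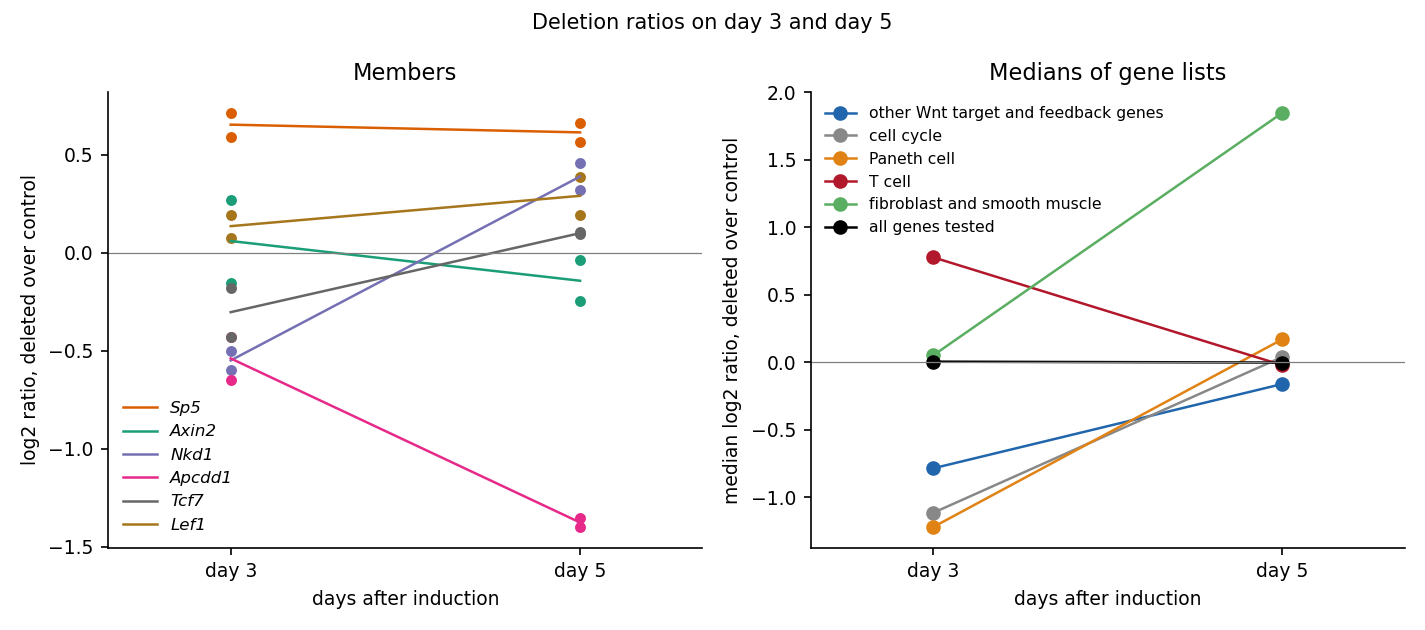
Log2 ratios of deleted over control epithelium on days 3 and 5, with the background refitted. Left, the 6 tested members, with points for the 2 dye-swapped arrays and lines joining the day means. Right, medians of gene lists. Apcdd1 is at -0.54 on day 3 and -1.38 on day 5 and Nkd1 at -0.55 and 0.39, while the other Wnt targets are at a median of -0.79 on day 3 and -0.16 on day 5.

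Other Wnt target and feedback genes lay on the opposite side of 0 from Sp5 in the deletion. This list held 17 genes, chosen with earlier results of these data known. Of 14 tested in the sorts, 11 were higher in GFPhi cells at a median log2 ratio of 0.50, against 50.1% of all genes. Of 16 tested in the deletion, 16 were lower in deleted epithelium at a median of -0.42, against 50.2% of all genes, and 8 of the 16 were lower on all 4 arrays. The medians were -0.79 on day 3 and -0.17 on day 5. Not every gene was lower on both days. Ccnd1 was at -1.32 on day 3 and 0.72 on day 5, and Mmp7 at -0.82 and 0.69. Myc was at 0.01 on day 5 and Rnf43 at 0.02 on day 3. The design itself sets the direction of Lgr5 in the sorts, since its promoter drives the GFP, and of Ascl2, the deleted gene, in the deletion. Without Lgr5, 10 of 13 were higher in GFPhi cells at a median of 0.36, and without Ascl2, 15 of 15 were lower in deleted epithelium at a median of -0.40. In the fit of all 4 RNA pairs 0 of them passed in either comparison, while with the sorts alone and the background refitted 9 of 14 were higher and 1 lower. Of the members, Apcdd1 was lower with them on both days, and Nkd1 and Tcf7 were lower on day 3.

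Of 15 crypt base stem cell markers, 8 of which are also in the list of other Wnt targets, 13 were lower in deleted epithelium at a median of -0.66, and 11 of them on all 4 arrays. In the sorts 13 of 14 were higher in GFPhi cells at a median of 0.82. Of all genes tested, 50.2% were lower in deleted epithelium, 13.3% on all 4 arrays, and 50.1% were higher in GFPhi cells. The marker list holds Lgr5 and Ascl2, so here too the design sets the direction of Lgr5 in the sorts and of Ascl2 in the deletion. Values of this list without them were not computed. Of 7 goblet cell markers, 7 were lower in GFPhi cells at a median of -1.47, and in the deletion their median was 0.94 on day 3 and 0.01 on day 5. The summed stem cell marker signal was 10762 to 10973 in deleted epithelium on day 3, against 18879 to 18926 in controls, and 17167 to 17976 in deleted epithelium on day 5, against 28418 to 28567 in controls. The summed goblet marker signal was 43767 to 86212 in GFPhi cells, against 135043 to 298178 in GFPlo cells, and on day 3 it was 490187 to 579112 in deleted epithelium, against 150278 to 270927 in controls. The part of these cells in the ratios of the members was not tested.

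**Figure D4:**
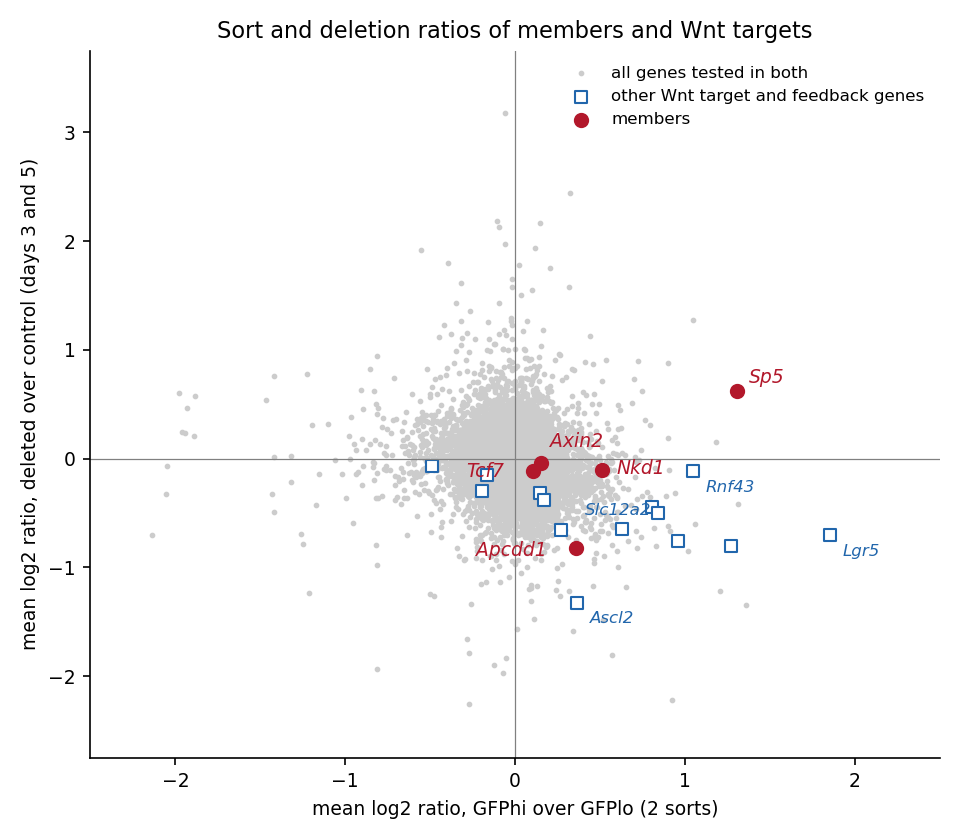
Mean log2 ratio of GFPhi over GFPlo (2 sorts, x axis) against mean log2 ratio of deleted over control (days 3 and 5, y axis) for the 10312 genes tested in both, as fitted on all spots. Red points are the 5 members tested in both and blue squares the 14 other Wnt target and feedback genes. Sp5 lies at 1.30 and 0.62, above 0 on both axes, while the 14 squares lie below 0 on the y axis.

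Named by the smallest unadjusted p of their list, Lgr5 and Rnf43 led in the sorts. Rnf43 encodes a membrane ubiquitin ligase that removes Wnt receptors. It had log2 ratios of 1.13 in sort 1 and 0.97 in sort 2 and a mean of 1.05 (SE 0.11, limma adjusted p = 0.629), against a deletion mean of -0.11 (adjusted p = 0.690). In the deletion Ascl2 and Slc12a2 led. Slc12a2 encodes a sodium, potassium and chloride cotransporter, and was at -0.68 on day 3 and -0.62 on day 5 (SE 0.09, limma adjusted p = 0.372). In the sorts it was at 0.71 and 0.56.

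Wnt ligands and their secretion had 5 of 6 tested genes higher in GFPhi cells at a median of 0.07, and 7 of 10 lower in deleted epithelium at -0.08. With the refit these medians were 0.17 and -0.05. Of the ligands, Wnt3, a ligand made at the crypt base, was at -0.74 on day 3 and -0.27 on day 5 (SE 0.14, limma adjusted p = 0.486), against -0.07 in the sorts (-0.21 with the refit). Porcn, which attaches the lipid to Wnt proteins, was at -0.25 in the deletion (limma adjusted p = 0.533). Named in the sorts, Wnt5b was at 0.13 and Wnt6 at 0.30; with the background refitted Wnt5b was at 0.32. Wnt receptors had 5 of 10 higher in GFPhi cells at -0.03 and 7 of 13 lower in deleted epithelium at -0.00055, with medians of 0.02 and -0.02 under the refit. The Frizzled genes Fzd2 and Fzd7 were at 0.32 and 0.29 in the sorts, and 0.52 and 0.55 with the background refitted. Fzd9 was at -0.97 on day 3 and -0.35 on day 5, and Lrp5, a co-receptor gene, at -0.64 and 0.09. Both ratios were higher on day 5 by limma (adjusted p of 0.0281 and 0.0270).

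Destruction complex and Dishevelled genes had 7 of 11 higher in GFPhi cells at a median of 0.06 and 9 of 17 higher in deleted epithelium at 0.04. Csnk1d, a casein kinase gene, was at 0.30 in the sorts (SE 0.09, limma adjusted p = 0.825), and Amer1, which encodes a membrane partner of Apc, at 0.23. Dvl1, a Dishevelled gene, was at 0.16 in the deletion, and Tnks, the tankyrase gene, at -0.10. Other Tcf factors and nuclear partners had 8 of 14 lower in GFPhi cells at a median of -0.01 and 11 of 16 higher in deleted epithelium at 0.07. With the background refitted 9 of these 14 were higher in GFPhi cells, at a median of 0.07. Tcf7l2, the main Tcf factor of the intestinal epithelium, was at 0.40 on day 3 and 0.36 on day 5 (SE 0.08, limma adjusted p = 0.453), against 0.06 in the sorts (0.11 refitted). Tle1, a co-repressor gene, was at 0.46 and 0.27 on those days (SE 0.09, limma adjusted p = 0.475), and at -0.19 in the sorts (-0.31 with the background refitted). Ctnnbip1, whose protein keeps beta-catenin from Tcf factors, was at -0.24 in the sorts (limma adjusted p = 0.895).

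Of the 8 other extracellular Wnt modulators tested in the deletion, 6 were higher, and the list's median was -0.06 on day 3 and 0.63 on day 5. Gpc3, a glypican gene, was at 0.38 and 1.01 (SE 0.18, limma adjusted p = 0.475), and Kremen1, a Dickkopf receptor gene, at 0.45 and 0.25. Both tested modulators in the sorts, Sost and Kremen1, were at 0.03 and 0.04 (0.06 and 0.08 with the background refitted). Of 11 fibroblast and smooth muscle markers tested, 6 were higher and 1 lower on day 5 than on day 3 by the limma test between days. Their summed signal over 15 genes was 24897 to 26990 in deleted epithelium on day 5, against 6179 to 6697 in controls. On day 3 it was 9854 to 10926 in deleted epithelium, against 10290 to 10316 in controls, and in the sorts 8701 to 13815 in GFPhi cells and 8411 to 14922 in GFPlo cells. All 11 averaged above 0 in deleted over control, with Col1a1 at -0.92 on day 3 and 4.81 on day 5. In the sorts Col1a1, Col3a1 and Dcn were above background on 0 of 4 arrays in both RNAs. Col1a2, Acta2 and Tagln were above it on 4 of 4 in both, and Vim on 3 of 4 in GFPhi cells and 4 of 4 in GFPlo cells. The part of these cells in the day 5 ratios of the members, and in the arrays on which Dkk3 and Wif1 were above background, was not tested. The endothelial marker Pecam1 passed background on 1 of 4 arrays for deleted epithelium and on 0 for the other RNAs. Of the 7 genes in the endothelial list, 1 passed the signal filter in the sorts and 1 in the deletion. Their log2 ratios were 0.08 and -0.06, and Pecam1 was in neither case the gene.

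All 20 cell cycle genes tested averaged below 0 in deleted over control, with a median of -1.12 on day 3 against 0.03 on day 5, and 19 of the 20 were higher on day 5 by the limma test between days. The 6 Paneth list genes were at medians of -1.22 and 0.18. By the same test 5 of them were higher on day 5, and 1, Guca2b, was lower, at 0.24 on day 3 and -0.96 on day 5. Their summed signal on day 3 was 176414 to 220768 in deleted epithelium, against 334412 to 344846 in controls, and on day 5 it was 302823 to 328794 in deleted epithelium, against 270139 to 395939 in controls. Nkd1, Tcf7 and the median of the other Wnt targets were also lower on day 3, and the part of these cells in those values was not tested. Sp5 was at 0.65 and 0.59 on the 2 days.

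Over the 4 RNA pairs, the genes nearest to Sp5 among 8998 named candidates were Pdgfa, a growth factor gene, and App, the amyloid precursor gene. Their Euclidean distances in log2 ratio were 0.75 and 1.06. Pdgfa was at 1.26 and 1.10 in sorts 1 and 2 and at 0.38 and -0.07 on days 3 and 5. The distances were 0.27 and 0.28 for Nkd1 (to Trip6 and Nod1), 0.31 and 0.32 for Apcdd1 (to Pcdh19 and Ces1d), 0.04 and 0.05 for Axin2 (to Dcaf8 and Snhg7) and 0.03 and 0.04 for Tcf7 (to Styx and Ubox5). The Sp5 distances were the largest of the 5 members, so its nearest genes are also the least alike. These distances are over values fitted on all spots.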

How the data were processed

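RNA was measured on 8 Agilent mouse arrays with 2 dyes. Per the file headers, Feature Extraction 9.5.3.1 gave spot intensity values on a linear scale and log10 ratios of the Cy5 over the Cy3 channel. A series matrix of log2 ratios was also deposited. Its columns correlated with the turned scanner ratios at r of 0.964 or more, their medians ran from -0.022 to 0.035, and whether the authors centred them is unknown.

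Here, normexp (offset 50) over all spots was followed by loess within arrays with control spots at weight 0. From the dyes in the labels, every ratio was given GFPhi or deleted RNA as its numerator. Outlier spots were left out, spots of a probe averaged, and the brightest probe taken for a gene. The 41174 probes were named through RefSeq accessions (23374), current symbols (6733), older symbols (2919) or the file's name (8148). Both arrays of each RNA pair were averaged, and the 4 pairs entered 1 fit (lmFit and eBayes, limma 3.58.1, R 4.3.3), with a coefficient for each comparison. A fit with a coefficient for each day gave day 5 minus day 3. The prior degrees of freedom were 1.99 and the prior SD was 0.156. Genes entered a test if 1 of the RNAs compared had a signal well above background on all its arrays. Two-sided p values were Benjamini-Hochberg adjusted over all genes tested, with a threshold of 0.05. The fit was tested on simulated data. The number of arrays limits the precision.

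The members, the gene lists and the alternatives were chosen with earlier results of these data known. Named genes are the members, the 2 genes of each Wnt list with the smallest p in each comparison, the 2 genes nearest to each member, Ascl2, Lgr5 and defining markers of other cells. Rec8 was named after its value was seen. Alternatives covered background correction, normalization, the series matrix, the signal filter, the probe of a gene, the unit of replication, the samples in the fit and leaving out each RNA pair. Those with offset 0, with spots left out of the background fit, and without Lgr5 or Ascl2 in the list of Wnt targets were chosen after seeing the data. Col1a2, Acta2, Tagln, Vim, Guca2b, Ccnd1, Mmp7, Myc and Cd8b1 were named after their values were seen.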

Additional observations from a re-analysis of the deposited data

Results flagged for a closer look

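For Nkd1 the deleted over control ratio was below 0 on both day 3 arrays and above 0 on both day 5 arrays. The difference of day 5 minus day 3 was 0.89, and its limma adjusted p of 0.0858 did not pass, while 0.0134 was reached with the background refitted.

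For Tcf7 the signs were split in the same way, with a difference of day 5 minus day 3 of 0.38 and a limma adjusted p of 0.0921. With the refit the adjusted p was 0.0897.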

How the results depend on the processing

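With 2 RNA pairs a comparison, counts of genes past the test depend on which pairs set the spread. For GFPhi over GFPlo the count of 0 became 75 with the sorts alone, 1335 with the sorts alone and the background refitted, and 38 with a random block for the RNA pair over all 8 arrays, and ran from 0 to 125 with an RNA pair left out. For deleted over control it became 254 with the random block and ran from 0 to 6100 with a pair left out (1186 without day 3, 6100 without day 5). For deletion minus sort these values were 91 and 0 to 3833 (562 without day 3). The 4417 genes of day 5 minus day 3 became 72 on the scanner's processed signals, 0 with median centring in place of loess (2518 at an unadjusted p under 0.05 by limma), 1640 on the series matrix, 359 with normexp offset 0 and 7732 with the random block. In that last fit each day holds 1 RNA pair and the block correlation was -0.33, so dye-swapped arrays act there as replicates. The members' median in the sorts was 1.16 on the processed signals and 1.36 on the series matrix, and ran from 0.07 to 0.65 with a pair left out. In the deletion it ran from -0.12 to 0.13. With a pair left out, the deletion means ran from -0.15 to 0.061 for Axin2, from -0.55 to 0.34 for Nkd1 and from -0.30 to 0.080 for Tcf7, each changing sign with the day. Counts of the other Wnt targets stayed at 11 of 14 higher in the sorts under all alternatives run, and at 13 to 16 of 16 lower in the deletion. Dim probes limit Axin2, Lef1, Notum, Wif1 and Dkk3, which were not well above background on all arrays of every RNA. The brightest probes of Apcdd1, Nkd1 and Tcf7 were, but low signal limits their deletion ratios too. In deleted epithelium, Apcdd1 averaged a log2 signal of 7.23 on day 5. On day 3 Nkd1 averaged 7.70 there and Tcf7 7.86, against 8.21 for Axin2. The day difference could not be fitted without a sort or on the deletion pairs alone, which leaves no residual degree of freedom, and the slide as a block is the RNA pair block. The ratios are already paired, because each array sets both RNAs of a pair side by side. No pairing beyond that was possible, since the sorts and the deletion days share no replicate numbers.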
